A study of Mus musculus with 6 samples.

Results

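Heme is made and broken down by a short, well-defined set of enzymes, and 9 of their genes were followed here in mouse liver on 2 diets. The 9 genes were chosen by symbol from the pathway: Alas1, Alas2, Alad, Urod, Cpox and Fech for synthesis, Hmox1 and Blvrb for breakdown, and Hpx, which carries free heme in plasma. All 9 had a row in every library, of 24982 genes in all, and all 9 passed the filter on low counts. Liver polyA RNA came from male C57BL/6NJ mice, with 3 samples from mice fed chow and 3 from mice fed a diet rich in fat while drinking sugar water (high fat high sugar, HFHS), for 54 weeks in both groups. No transgene or other allele is named in the labels. The labels do not say whether tumour was part of the tissue, or in so many words that each sample was 1 animal, so the tests measure the spread between these samples.

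Heme is assembled partly in mitochondria and partly in the cytosol. The first step, joining glycine to succinyl-CoA, is made by aminolevulinate synthase and sets the rate of the pathway; Alas1 encodes the form that most tissues use, and Alas2 the form of red cell precursors. Liver is, after bone marrow, the main site of heme synthesis and uses much of it for cytochrome P450 enzymes, and heme in turn represses Alas1. Heme oxygenase opens the ring to biliverdin, carbon monoxide and iron, and biliverdin reductase then gives bilirubin.

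The sequences next to the 2 synthase genes are shown because the 2 isoforms are known for different control. Alas1 lies on chromosome 9 (106233455 to 106248654, minus strand) and Alas2 on chromosome X (150547375 to 150570638, plus strand; GRCm38, GENCODE M21). In the RefSeq promoter windows (GRCm38.p6), each 300 bases long, both Alas1 windows held 2 matches to the motif of nuclear respiratory factor 1. The motif is GCGCA, any base and then GCGC on either strand, which 4.60% of all 32851 windows hold. The 2 Alas1 windows overlap, and their matches are the same 2 sites. The 30 bases around one of them, at chr9:106247906-106247935 on the minus strand, lie within an exon of a longer annotated Alas1 transcript, and the capitals mark the motif. The Alas2 window held 1 match to a GATA motif (the letters GATA with A or T before and A or G after, on either strand), which 29.8% of windows hold, and none to the Alas1 motif. Its 208 bases before the first exon, at chrX:150547167-150547374 on the plus strand, are shown with the GATA match in capitals. Alas2 mRNA also carries an iron-responsive element in its 5′ untranslated part, a hairpin through which iron regulatory proteins hold back translation; the capitals mark its loop, bases 96 to 101 of the transcript, with all 5 stem pairs next to the loop complementary or G-U. A match describes the letters in the window, not binding.
Alas1 nuclear respiratory factor 1 motif: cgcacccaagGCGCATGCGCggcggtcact
Alas2 upstream stretch: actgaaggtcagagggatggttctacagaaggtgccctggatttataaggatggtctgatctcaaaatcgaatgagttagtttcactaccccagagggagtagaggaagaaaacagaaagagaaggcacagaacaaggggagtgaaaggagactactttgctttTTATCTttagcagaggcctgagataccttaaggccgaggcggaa
Alas2 iron-responsive element: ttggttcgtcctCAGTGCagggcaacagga

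Of the 9 genes, Alas2 was the one that passed the test: it fell to 0.340 of its chow level on the HFHS diet. Alas1 did not differ beyond its spread between libraries. The downstream synthesis genes Alad, Urod, Cpox and Fech had lower means on the diet, and Hmox1 a higher mean, without passing. P-values came from a quasi-likelihood test in edgeR and were adjusted over 12949 genes after Benjamini and Hochberg. By that test 1 member was lower and 0 were higher at an adjusted p under 0.05, against 3.61% of all tested genes lower and 11.0% higher. At an unadjusted p under 0.05 there were 3 of 9 members, Alas2, Fech and Hmox1, beside 32.3% of all tested genes, a like share. DESeq2 called these 3, which made 2 lower and 1 higher, beside 7.53% of all genes lower and 14.0% higher by that tool. The median log2 fold change of the members was -0.22, beside -0.02 for all tested genes, and their median absolute change was 0.29, beside 0.28. In 1 member (Hmox1) all HFHS libraries lay above all chow libraries, and in 2 (Alas2 and Fech) all lay below, while 21.5% and 18.0% of tested genes did so, 39.5% in all.

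**Figure D1:**
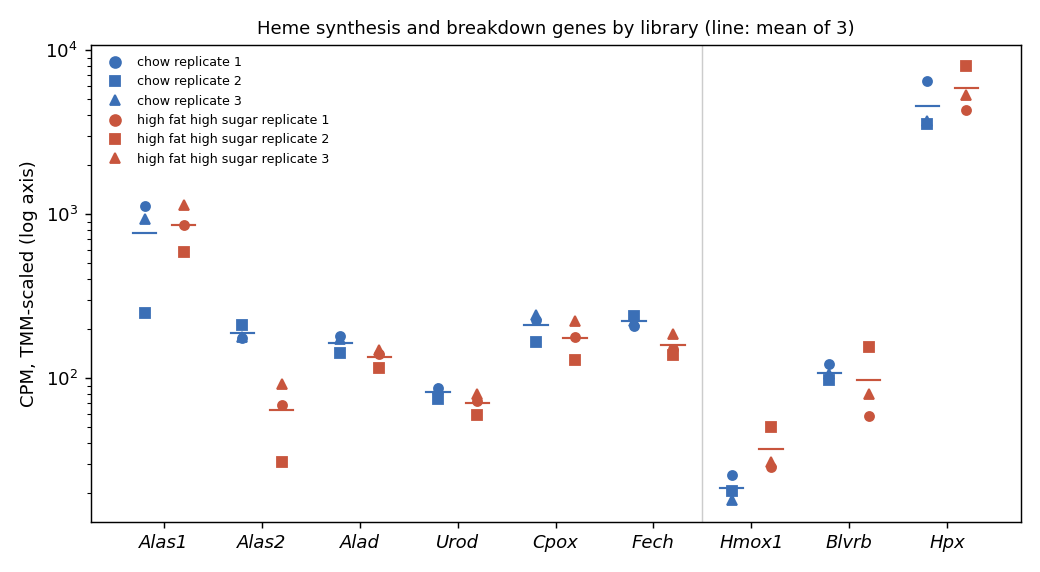
CPM (gene counts scaled to the TMM-adjusted library size, log axis) of the 9 genes in each of the 3 chow (blue) and 3 HFHS (red) libraries, with a line at each mean. The diets separate for Alas2, Fech and Hmox1 and overlap for the other 6; the square of chow replicate 2 lies far below the other chow libraries for Alas1.

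The libraries held between 16565335 and 20585366 gene counts, and 3 counts correspond to 0.115 to 0.202 CPM, so every member was read far above the floor. HFHS replicate 2 stood apart: its summed Kupffer cell and macrophage markers came to 2161 CPM, against 1147 and 1036 CPM in replicates 1 and 3 and 323 to 470 CPM in chow, and its summed hepatocyte markers to 42418 CPM, against 99820 and 80256 CPM in its group and 106860 to 130847 CPM in chow. Alb was the largest part of the hepatocyte sum in every library, at 71089, 24173 and 50339.5 CPM in HFHS replicates 1, 2 and 3 and 69128 to 89699 CPM in chow. The TMM factor of HFHS replicate 2 was 1.26, beside 0.897 to 1.02 in the other libraries. Without chow replicate 3, 4 genes were higher and 2 lower in all, and of the calls named here that of Cd163 alone held. In bulk tissue, fewer cells of a type and less RNA per cell cannot be told apart.

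Alas2 encodes the synthase of the erythroid lineage. It was at 175, 211 and 177 CPM in chow replicates 1, 2 and 3 and at 68.4, 30.6 and 92.5 CPM in the HFHS libraries. Every library on the diet was below every chow library, and the chow libraries lay close together. The means were 188 ± 20.2 and 63.8 ± 31.2 CPM (SD, n = 3), or -1.56 ± 0.37 on the log2 scale (SE; edgeR adjusted p = 0.0344). The direction held without each library in turn, with log2 fold changes from -1.22 to -1.93. The call itself was lost without any 1 of the chow libraries or HFHS replicate 1 (adjusted p of 0.0758 to 0.105) and when genes of low count were kept in (adjusted p = 0.0512), in a range of 0.000113 (DESeq2) to 0.105 over all alternatives.

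Erythroid markers other than globin were at low levels in these libraries. Of 15 markers 14 had a row, and 1 of those had counts enough to be tested. The 14 summed to between 5.83 and 10.01 CPM in chow and between 3.19 and 4.30 CPM on the diet, so that Alas2 was 17.5, 36.2 and 21.4 times the sum of the whole list in chow replicates 1, 2 and 3, and 19.8, 9.59 and 21.5 times on the diet. The 4 adult globin genes Hba-a1, Hba-a2, Hbb-bs and Hbb-bt, near-identical pairs, are listed at 0 counts in all 6 libraries. They therefore give no measure of blood and add 0 to the sum, so the ratios leave globin RNA out. Slc4a1, the anion exchanger of red cells, was at 2.17, 0.275 and 1.89 CPM in chow and at 0.103, 0.115 and 0.503 CPM on the diet. Its counts were too few to be tested. Chow replicate 2, the lowest of its group for Slc4a1 with 5 counts, had the highest Alas2. On the diet, replicate 3 was the highest for both genes. Klf1, an erythroid transcription factor, fell from 5.51 ± 0.207 to 2.97 ± 0.321 CPM (SD, n = 3), or -0.90 ± 0.19 on the log2 scale (SE; edgeR adjusted p = 0.0218). It was the 1 marker that was tested and the largest part of the summed list in every library. That call was lost without any 1 of the chow libraries or HFHS replicate 1, and with library size only. Of the untested markers with counts, Tspo2 and Ermap had higher means on the diet and the rest lower means. Tspo2 had 1, 0 and 0 counts in chow and 2, 3 and 2 on the diet, and Ermap 1, 0 and 0 and then 0, 5 and 4. Gata1, an erythroid transcription factor, had 1, 0 and 0 counts in both groups. The part of erythroid RNA in the Alas2 difference was not tested beyond these values. Alas2 shares 311 of its 2403 annotated exon bases with Apex2 on the opposite strand, and the strand setting of the counting is not given in the sources used here; Apex2 had 94 to 134 counts per library, beside 796 to 3837 for Alas2.

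Alas1, the housekeeping synthase, was at 1127, 248 and 929 CPM in chow replicates 1, 2 and 3 and at 861, 587 and 1130.2 CPM on the diet. One chow library was low and the remaining 5 overlapped across the diets. The means were 768 ± 461 and 859 ± 272 CPM (SD, n = 3), with a log2 fold change of 0.16 ± 0.53 (SE; edgeR adjusted p = 0.864). The sign rested on single libraries: it was -0.27 without chow replicate 2 and -0.09 without HFHS replicate 3. In chow replicate 2 Alas1 was lower than in chow replicates 1 and 3, which were 4.55 and 3.75 times as high. The same library held more Nr1d1, a clock repressor, at 173 CPM against 39.8 and 18.5 CPM, and less Por, the reductase that feeds electrons to cytochromes P450, at 336 CPM against 1028 and 1162 CPM. These 2 genes, from the lists of regulators and heme-dependent enzymes, were picked after their values were seen, and their part in the Alas1 level was not tested. Nr1d1 shares 263 exon bases with Thra on the opposite strand, and Alas1 shares 465 with the antisense gene 4930500F10Rik.

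The 2 synthase genes were set against each other within each library, which needs no scaling between libraries. Per Alas2 count there were 6.43, 1.17 and 5.25 Alas1 counts in chow replicates 1, 2 and 3, and 12.6, 19.1 and 12.2 in the HFHS libraries. All ratios on the diet were above all in chow. Alas1 made up 54.0% to 86.5% of the counts of both genes in chow and 92.4% to 95.0% on the diet. As log2 of the ratio with a pseudocount of 0.5, the means were 1.77 ± 1.34 in chow and 3.84 ± 0.36 on the diet (SD, n = 3), a difference of 2.07 (two-sided exact permutation test, p = 0.1, the smallest that 3 samples against 3 allow). Without chow replicate 2, where Alas1 was low and Alas2 high, the difference was 1.30.

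**Figure D2:**
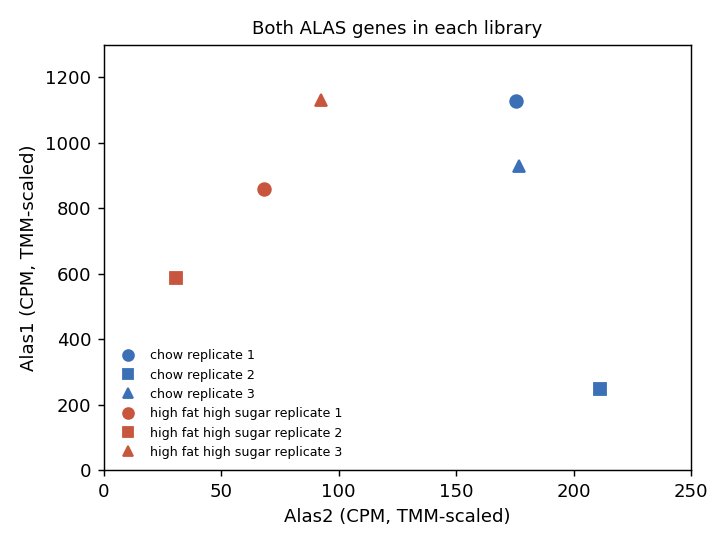
Alas1 against Alas2 in each library, both in TMM-scaled CPM, for chow (blue) and HFHS (red). The diets separate along the Alas2 axis, at 175 to 211 against 30.6 to 92.5 CPM, and overlap along the Alas1 axis, where chow replicate 2 is lowest at 248 CPM.

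Fech encodes ferrochelatase, which places iron into the ring in the last step. It was at 209, 240.2 and 222 CPM in chow and at 151, 138 and 186 CPM on the diet. All 3 libraries on the diet lay below all 3 in chow, by a margin smaller than that of Alas2. The log2 fold change was -0.50 ± 0.15 (SE; edgeR adjusted p = 0.0676). It passed in the fit without HFHS replicate 3 (-0.64, adjusted p = 0.0321) and with DESeq2 (adjusted p = 0.0130), in a range of 0.0130 to 0.264 over all alternatives. With scaling by library size only, which moves the median of all genes from -0.02 to 0.25, it was -0.25.

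The genes of the steps between did not pass the test. Alad, whose enzyme joins aminolevulinate into porphobilinogen, was at 179, 141 and 173 CPM in chow and 141, 115 and 148 CPM on the diet. Urod, which trims side chains of uroporphyrinogen in the cytosol, was at 86.4, 75.0 and 85.3 CPM and at 72.8, 59.9 and 79.6 CPM. Cpox, which carries out the next oxidation in mitochondria, was at 226, 167 and 241 CPM and at 177, 128 and 223 CPM. The libraries of the diets overlapped for all 3. Their log2 fold changes were -0.29 ± 0.15 for Alad, -0.22 ± 0.13 for Urod and -0.26 ± 0.23 for Cpox (SE), with Benjamini-Hochberg adjusted p from edgeR of 0.240, 0.304 and 0.476. Alad lies on chromosome 4 (62509169 to 62519918), Urod on chromosome 4 (116989965 to 116994413) and Cpox on chromosome 16 (58670292 to 58717636), where it shares 204 exon bases with Gpr15 on the opposite strand. With library size only the log2 fold changes were -0.032, 0.037 and -0.020.

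Of 2 further synthesis enzymes outside the set, 0 passed edgeR's test or an unadjusted p under 0.05. Uros, which closes the ring, was at 0.04 ± 0.15 on the log2 scale (SE), and Ppox, the last oxidation before ferrochelatase, at -0.21 ± 0.13. Over these 8 synthesis genes, both synthases included, 6 had a negative log2 fold change (4 with library size only), as did 52.3% of all tested genes, and 1 passed. Ppox and Urod turned positive with library size only.

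**Figure D3:**
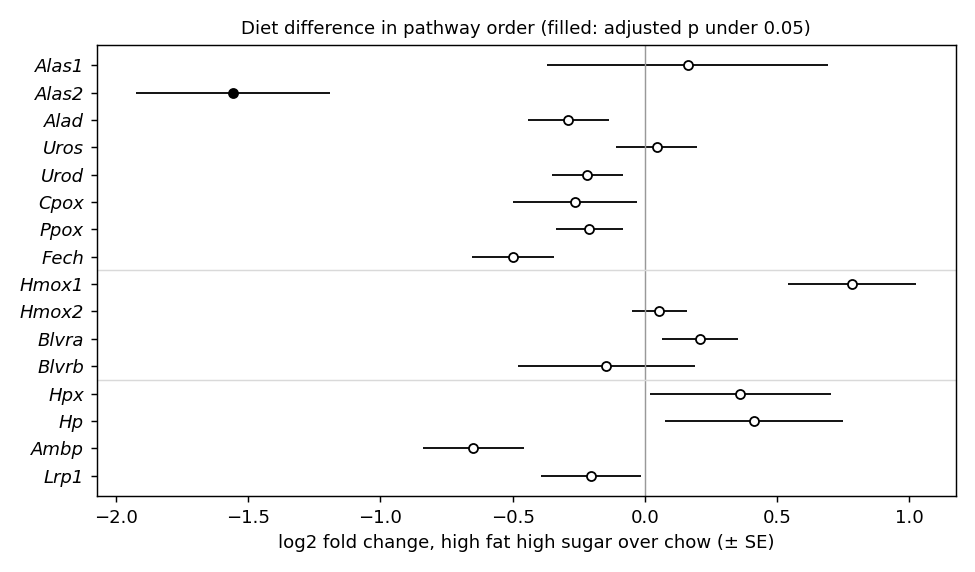
Log2 fold change of HFHS over chow (points, with SE as bars) for synthesis genes from the first to the last step, then breakdown enzymes, then plasma carriers and receptors. Alas2 at -1.56 is the only filled point among the genes plotted, and most synthesis genes lie between 0 and -0.50. The scavenging receptor gene Cd163, called lower at -6.97, is not plotted.

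Hmox1 encodes heme oxygenase-1, the inducible enzyme of heme breakdown, which macrophages that clear red cells hold at high levels (chromosome 8, 75093621 to 75100589, plus strand). It was at 25.6, 20.3 and 18.0 CPM in chow and at 28.6, 50.6 and 30.9 CPM on the diet. The diets did not overlap, although HFHS replicate 1 was just above chow replicate 1, and replicate 2 was the highest of all. The means were 21.3 ± 3.86 and 36.7 ± 12.1 CPM (SD, n = 3), with a log2 fold change of 0.78 ± 0.24 (SE; edgeR adjusted p = 0.0694). Without HFHS replicate 2 the value was 0.49, and DESeq2 called it (adjusted p = 0.0251), in a range of 0.0251 to 0.208 over all alternatives. Of 15 Kupffer cell and macrophage markers, 12 rose and 1 fell, beside 11.0% and 3.61% of all tested genes. Their median log2 fold change was 1.91, beside -0.02 for all tested genes. Their summed level was highest in the library where Hmox1 was highest. Adgre1, which encodes F4/80, rose from 13.8 ± 3.03 to 63.7 ± 12.2 CPM and Cd68, a lysosomal protein of macrophages, from 8.43 ± 2.18 to 37.9 ± 21.1 CPM (SD, n = 3). Csf1r, the receptor for macrophage growth factor, rose by 1.70 on the log2 scale and Clec4f, a Kupffer cell lectin, by 1.02, while the scavenger receptor gene Marco fell by 3.68. The part of macrophage RNA in the Hmox1 difference was not tested. The count of rises was 4 without chow replicate 2 and 0 without chow replicate 3. In the latter fit 14 of the 15 still had an unadjusted edgeR p under 0.05, as did 3203 of all 13305 genes tested.

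Blvrb encodes biliverdin reductase B, which also acts as a flavin reductase (chromosome 7, 27447978 to 27466144, plus strand). It was at 121, 97.3 and 105 CPM in chow and at 58.3, 154 and 80.0 CPM on the diet. The libraries on the diet spread to both sides of chow, with replicate 2 lying 2.64 and 1.92 times as high as replicates 1 and 3. The log2 fold change was -0.15 ± 0.34 (SE; edgeR adjusted p = 0.801). It was -0.63 without HFHS replicate 2, which passed (adjusted p = 0.0443, in a range of 0.0443 to 0.965 over all alternatives), 0.11 without replicate 1 and 0.19 with library size only. The other breakdown enzymes did not pass, with 0 of 2 past edgeR's threshold or an unadjusted p under 0.05. Hmox2, the constitutive heme oxygenase, had a log2 fold change of 0.05 ± 0.10 and Blvra, the main biliverdin reductase, of 0.21 ± 0.14 (SE).

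Hpx encodes hemopexin, a plasma protein made by hepatocytes that binds free heme and brings it back to the liver (chromosome 7, 105591613 to 105600137, minus strand). It was at 6469, 3556 and 3688 CPM in chow and at 4301, 7959.6 and 5357 CPM on the diet. The ranges overlapped and each diet had 1 high library. The log2 fold change was 0.36 ± 0.34 (SE; edgeR adjusted p = 0.510), and 0.09 without HFHS replicate 2. Hp, the haemoglobin-binding haptoglobin, had the same high libraries, with 5027, 2401 and 2853 CPM in chow and 3670, 5771 and 4253 CPM on the diet. Of the 4 other scavenging genes 1 was lower and 0 were higher, beside 3.61% and 11.0% of all tested genes. It was Cd163, the receptor for haemoglobin bound to haptoglobin on macrophages. Cd163 fell from 20.1, 13.1 and 16.8 CPM in chow to 0.258, 0.115 and 0 CPM on the diet. The heme-binding plasma protein gene Ambp was at 2667 ± 284 and 1701 ± 116 CPM (SD, n = 3; edgeR adjusted p = 0.0604), with no overlap between diets, and the hemopexin receptor gene Lrp1 had a log2 fold change of -0.20 ± 0.19 (SE).

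Synthesis was set against breakdown as the mean log2 CPM of Alas1, Alad, Urod, Cpox and Fech minus that of Hmox1 and Blvrb, with no test because the genes were a chosen set. The difference was 2.11, 1.84 and 2.43 in chow and 2.20, 0.75 and 2.16 on the diet. HFHS replicate 2 was low and its 2 companions lay within the chow range. The mean difference between the diets was -0.43, and 0.05 without that library. Within the HFHS group, replicate 2 was the lowest for all 6 synthesis members and the highest for Hmox1, Blvrb and Hpx. Over all tested genes it was lowest for 36.2% and highest for 39.2%. With library size only it was lowest for 3 of the 6 and still highest for all 3, when it was highest for 70.1% of all tested genes.

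Levels between genes were compared per kilobase of the main annotated transcript. In chow, Hpx had 3049 CPM per kilobase, Alas1 249 ± 149, Alad 132 ± 16.4, Blvrb 105 ± 11.8, Alas2 92.2 ± 9.91, Cpox 68.2 ± 12.6, Urod 55.2 ± 4.23, Fech 34.0 ± 2.41 and Hmox1 13.6 ± 2.46 (SD, n = 3). Neighbours from Alas1 down to Alas2, and Cpox and Urod, differed by less than the sum of their SDs. On the diet Alas2 came seventh of the 9, at 31.3 ± 15.3 CPM per kilobase, below Urod at 47.5 ± 6.70 and beside Fech at 24.1 ± 3.79 and Hmox1 at 23.4 ± 7.71. The place of Fech depends on its length, since its annotated coding transcripts run from 1753 to 6571 bases and the longest was used.

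Among 20 liver genes of enzymes that hold heme, or pass electrons to those that do, 5 fell and 0 rose, beside 3.61% of all tested genes lower and 11.0% higher. All 20 had a negative log2 fold change (19 with library size only), as did 52.3% of all tested genes. The median was -0.82, beside -0.02 for all tested genes. At an unadjusted p under 0.05 there were 10, all lower, beside 12.8% of all tested genes, and DESeq2 called 10 lower, beside 7.53%. Cyp3a11, a drug-metabolising cytochrome P450, fell from 5500.4 ± 454 to 1542 ± 259 CPM (SD, n = 3), or -1.83 ± 0.23 on the log2 scale (SE; edgeR adjusted p = 0.00867). Cyp2c37 fell by 2.13 and Cyp2c29 by 1.97 on the log2 scale, and the heme-dependent tryptophan dioxygenase gene Tdo2 by 0.90. Cyp2b10 fell by 4.43 from 5.32 ± 1.17 CPM, with 11, 3 and 1 counts in the libraries on the diet. The list's summed level was 31384 to 37724 CPM in chow and 14816 to 22383 CPM on the diet. Of 12 hepatocyte markers 1 was lower, beside 3.61% of all tested genes. It was Serpina1c (-1.26), a call lost without any 1 of the chow libraries or HFHS replicate 1. All 12 had a negative log2 fold change (11 with library size only), as did 52.3% of all tested genes. Their median was -0.71, and Ttr was at -0.87 and Tat at -1.64. All HFHS libraries lay below all chow libraries in 6 of the 12 and in 10 of the 20 enzyme genes, beside 18.0% of all tested genes. Alb was at 78930.3 ± 10319 and 48534 ± 23510.2 CPM (SD, n = 3; edgeR adjusted p = 0.289). How far the enzyme list and the hepatocyte list share a cause was not tested. The count of 5 was 3 without chow replicate 1 or 2, 0 without chow replicate 3 and 8 without HFHS replicate 2.

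**Figure D4:**
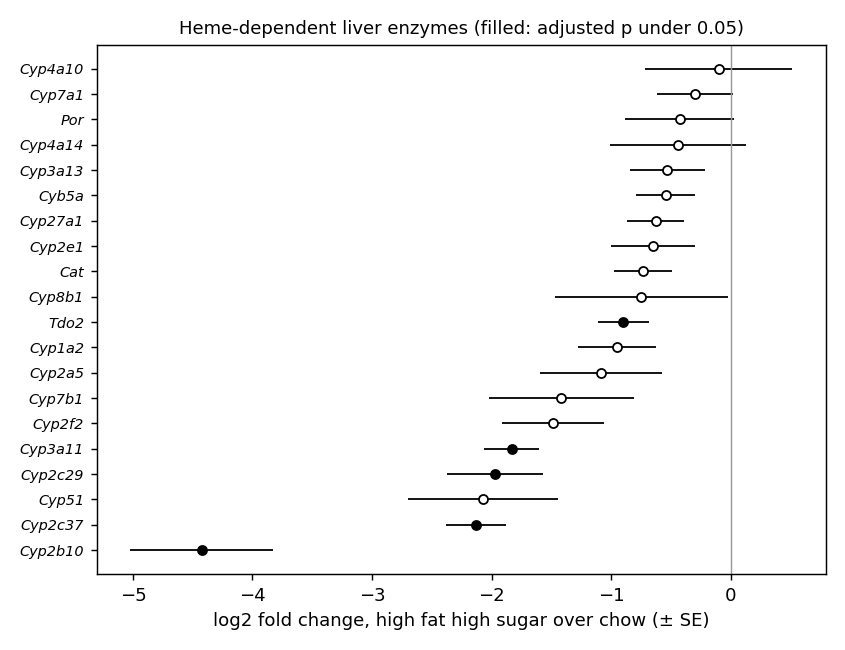
Log2 fold change of HFHS over chow (points, with SE as bars) for 20 heme-dependent liver enzymes and their electron donors, ordered by value. All lie below 0, and the 5 filled points passed an adjusted p of 0.05.

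Of 14 transporters of heme and its precursors 1 passed, a share below the 14.6% of all tested genes called in either direction. Flvcr1, a heme exporter, rose from 3.89 ± 0.853 to 7.53 ± 1.51 CPM (SD, n = 3), or 0.95 ± 0.23 on the log2 scale (SE; edgeR adjusted p = 0.0351). It shares 809 of its 5177 exon bases with a transcript annotated on the opposite strand, A230020J21Rik. The call was lost without chow replicate 2 or 3 or HFHS replicate 1 or 2. Pgrmc1, a heme-binding membrane protein, was at 1815 ± 70.7 and 1127 ± 167 CPM (SD; edgeR adjusted p = 0.0506), with no overlap, and the proton-coupled folate and heme carrier gene Slc46a1 had a log2 fold change of -0.45 ± 0.14 (SE; edgeR adjusted p = 0.0705). Of 10 regulators 1 was lower and 0 were higher, beside 3.61% and 11.0% of all tested genes. It was Mafg, a small Maf protein that pairs with BACH1 and NRF2 at heme-responsive genes. Mafg fell from 50.1 ± 5.69 to 35.8 ± 2.79 CPM (SD, n = 3), with an edgeR adjusted p of 0.0391. It shares 124 of its 5613 exon bases with Sirt7 on the opposite strand. Its call was lost with limma-voom (adjusted p = 0.0508), and in edgeR with upper-quartile scaling (adjusted p = 0.0772) and library size only (0.423). The adjusted p ranged from 0.0164 (DESeq2) to 0.423 over all alternatives. The Mafg call was also lost without any 1 library other than chow replicate 1. The protease gene Lonp1 had -0.36 ± 0.12 and the heme-regulated kinase gene Eif2ak1 -0.32 ± 0.12 (SE; edgeR adjusted p of 0.0803 and 0.110), and Nfe2l2, which encodes NRF2, 0.33 ± 0.15. Among 9 tested NRF2 targets other than Hmox1, 1 rose, beside 11.0% of all tested genes, and the median was 0.01. It was G6pdx of the pentose phosphate pathway (1.71 ± 0.25, SE). Srxn1 was at 1.02 ± 0.51 and Gsr at -0.23 ± 0.17 (SE), and neither passed. Within the HFHS group the tested targets other than G6pdx and Ftl1 were highest in replicate 2, as was Hmox1, beside 39.2% of all tested genes. Srxn1 was at 49.8, 184 and 55.2 CPM in HFHS replicates 1, 2 and 3.

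Of 9 genes that take up, conjugate or export bilirubin and related anions, 1 fell, beside 3.61% of all tested genes. Slco1a4, an organic anion carrier, went from 140.1, 92.1 and 169 CPM in chow to 38.6, 57.7 and 26.3 CPM on the diet, a log2 fold change of -1.71 ± 0.33 (SE; edgeR adjusted p = 0.0204), a call lost without chow replicate 1 or 3 and with library size only (adjusted p = 0.0509, in a range of 5.41e-06 to 0.0820 over all alternatives). Ugt1a1, which conjugates bilirubin and shares exons with other genes of its locus, was at 382, 294 and 373 CPM in chow and 175, 231 and 277 CPM on the diet, with no overlap (edgeR adjusted p = 0.0820). The binding protein gene Gsta3 had a log2 fold change of -0.90 ± 0.26 (SE; edgeR adjusted p = 0.0562) and Gstm1, the only member with a positive value, 0.13 ± 0.36. Over the 41 genes of these 6 pathway lists, 1 was higher and 3 lower, beside 11.0% and 3.61% of all tested genes. A negative log2 fold change was found for 28 (21 with library size only), as for 52.3% of all tested genes. The median was -0.29, beside -0.02 for all tested genes. In 15 of the 41 all HFHS libraries lay below all chow libraries and in 1 above, beside 18.0% and 21.5% of all tested genes.

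**Figure D5:**
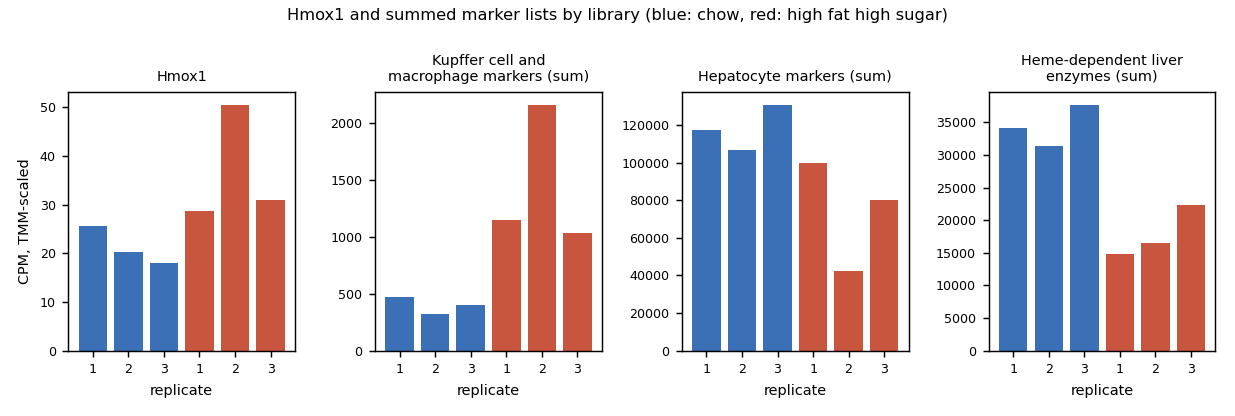
CPM of Hmox1 and summed CPM of 3 gene lists in each library (bars from 0; blue for chow, red for HFHS). HFHS replicate 2 has the highest Hmox1, at 50.6 CPM, the highest macrophage sum, at 2161 CPM, and the lowest hepatocyte sum, at 42418 CPM. Alb is the largest part of the hepatocyte sum in every library.

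The genes whose pattern over the 6 libraries was closest to that of Alas1 were Cyp26b1, Ect2 and Lgalsl, with root mean square differences of centred log2 CPM of 0.36, 0.36 and 0.37, beside a median of 0.81 over 10671 genes with a mean count of at least 50. For Hmox1 they were Dgkh, Unc93b1 and Wipf3, at 0.08, 0.09 and 0.10, beside a median of 0.55. This measure grows with a gene's own spread between libraries. Within chow the highest library was 4.55 times the lowest for Alas1 and 1.42 times for Hmox1. The closeness of the 2 sets of neighbours therefore cannot be compared by it.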

How the data were processed

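Per the labels' protocols, polyA RNA of frozen liver went into dUTP-based stranded libraries. Per the submitters' processing notes, reads were aligned with STAR to mm10. Not given in the sources used here: version, counting program, annotation and strand setting. As deposited by the authors, each library has 1 table of read counts in whole numbers, by gene symbol. Reads outside genes (7.74% to 10.6%) and ambiguous reads (0.615% to 0.862%) were left out.

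Samples were grouped by title. Counts were filtered with filterByExpr (minimum count of 10; 12949 genes kept), scaled by TMM and tested for diet with edgeR 4.0.16 (robust quasi-likelihood, no covariate, R 4.3.3), with Benjamini-Hochberg adjustment over all tested genes and a threshold of 0.05. Levels are CPM from TMM-scaled library sizes; log2 CPM used a prior count of 2. DESeq2 1.42.0, limma-voom (limma 3.58.1), other scalings, no filter, non-robust estimation, a replicate block and leaving out each library were alternatives. The fits were tested on simulated data. There edgeR, DESeq2 and limma-voom all made a larger share of false calls than the threshold allows, DESeq2 the largest and limma-voom the smallest. Smaller fold changes were recovered less often.

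The members and lists were chosen with earlier results of these data known. Named genes are all members, the other enzymes and scavengers, 7 fixed genes (4 globins, Alb, Adgre1, Cd68) and 3 pattern neighbours each of Alas1 and Hmox1. From each other list they are the 3 of smallest p and the best of the minority direction. Cyp2c29, Tdo2, Slc4a1, Tspo2, Ermap, Gata1, Ftl1, Nr1d1, Por and Apex2 were added after their values were seen. Some genes of these lists are not reported here and were left out of the list counts and sums. Positions and transcript lengths are from GENCODE M21 (GRCm38, the assembly that mm10 denotes). RefSeq windows were given for 7 of the 9 members. Counts of all replicate pairs differed by more than sampling noise (chi-square per gene of at least 24.2). Floors cover counting error only.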

Additional observations from a re-analysis of the deposited data

How the results depend on the processing

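The 9 members' log2 fold changes kept their sign and their side of the threshold in 66 of 72 refits with another setting and 45 of 54 without 1 library. Members past the threshold came to 1 higher and 2 lower with DESeq2, 0 lower with no filter and 0 to 2 lower without 1 library. With library size only the reversed values were 0.037 for Urod, 0.19 for Blvrb, 0.046 for Ppox, 0.057 for Lrp1 and 0.067 for Gsr, and limma-voom gave -0.021 for Gstm1. Leaving out 1 library also turned signs: Alas1 ran from -0.27 (without chow replicate 2; -0.09 without HFHS replicate 3) to 0.54, Blvrb from -0.63 (without HFHS replicate 2) to 0.11 (without HFHS replicate 1), Uros from -0.14 to 0.15, Hmox2 from -0.012 to 0.091 and Gstm1 from -0.40 to 0.37. In the same way synthesis minus breakdown ran from -0.68 to 0.051 (without HFHS replicate 2) and the Alas1 to Alas2 difference from 1.30 to 2.53.

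Over all genes 1428 were higher and 468 lower (75.3% higher); library size only gave 1928 and 200 (90.6%), upper-quartile scaling 1649 and 327 (83.5%) and DESeq2 1811 and 974 (65.0%). Without 1 library the counts ran from 4 to 1664 and from 2 to 772, lowest without chow replicate 3. Heme-dependent enzymes lower were 10 with DESeq2 and 0 to 8 without 1 library, macrophage markers higher 0 to 13, and pathway genes higher 0 to 1 and lower 1 to 7; the last came to 9 with DESeq2 and 1 with library size only. The cause was not tested.

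The replicate numbers did not pair the libraries: same-numbered libraries had correlations of -0.25 to 0.03, and 0 of 6 correlated best with its own number. With the replicate block 961 genes were higher and 282 lower, 0 members were lower (Alas2 at an adjusted p of 0.0715), pathway genes came to 0 higher and 1 lower, and Gstm1 was at -0.0022. The block also ended the calls of Klf1 (adjusted p = 0.0557 with edgeR), Serpina1c (0.0563), Mafg (0.0568), Cd68 (0.0749), Flvcr1 (0.0753) and Slco1a4 (0.0765). With the block as pairs, the Alas1 to Alas2 difference of 2.07 had an exact p of 0.25, the smallest that 3 pairs allow.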
